A study of Mus musculus with 5 samples.

Results

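The single-cell transcriptomes compared here came from mouse EpiSCs, the stem cell lines that are derived from the epiblast after implantation, which had been differentiated toward mesoderm either with an FGF receptor inhibitor or with no added FGF2. Both cultures, like the other 3 libraries of the series, were kept for 3 days in N2B27 medium. It held 1 µM Chi, a CHIR compound that is an agonist of Wnt signaling, and 8 ng/ml BMP. The FGFRi library received 30 nM AZD4547, a small molecule that blocks the kinase of FGF receptors, and the 0 ng/ml library received neither FGF2 nor inhibitor. The other 3 libraries received 0.75, 3 and 12 ng/ml FGF2 and are quoted only as values alongside. The labels give no FGF2 dose for the FGFRi library, so the inhibitor and any difference in FGF2 between the cultures cannot be told apart.

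Cells were kept if they had at least 2500 detected genes and at most 10% of their unique molecular identifiers (UMIs) in mitochondrial genes. This kept 1701 of 2635 barcodes of the FGFRi library and 1696 of 2407 at 0 ng/ml, together 3397 of the 10653 cells kept in the series. No kept barcode was shared by the pair. The kept cells held 47824660 and 56812075 UMIs, with medians of 24408 UMIs and 4986 genes per cell in the FGFRi library, and 29661.5 UMIs and 5382.5 genes at 0 ng/ml. Mitochondrial genes took a median of 4.35% and 4.13% of UMIs per cell, and ribosomal protein genes took 25.3% and 28.8% of all UMIs. There was 1 library per condition from 1 cell line. No difference below was therefore tested, and each one compares these libraries rather than the conditions. UMIs were summed over the cells of a library and divided by the library's total, in CPM, the usual unit of UMIs scaled to a common total. Intervals are exact 95% intervals that cover counting error only. Pairs of levels are given with the FGFRi library before 0 ng/ml.

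FGF ligands bind receptor tyrosine kinases on the cell surface, which recruit adaptors and switch on the RAS and ERK cascade. ERK phosphorylates Ets factors and turns on genes that feed back on the pathway, among them the Sprouty, Spred and dual specificity phosphatase genes. In the gastrulating embryo FGF signaling is needed for cells to leave the primitive streak as mesoderm, and together with Wnt it maintains the growth zone at the caudal end, where Cdx factors and Hox genes are expressed. Cells cultured without FGF2 can still make FGF ligands of their own, and an inhibitor blocks the response to these as well.

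Of 8445 genes that reached 10 CPM on either side, 675 (7.99%) differed by a ratio of at least 2, a fixed rule of size used throughout. The FGFRi library was higher for 454 genes (5.38%) and lower for 221 (2.62%). With totals that left out mitochondrial and ribosomal protein genes, 453 genes were higher and 337 lower. The median log2 ratio over the 8445 genes was −0.0004, and 78.2% of them lay within 1.5-fold. Larger ratios were as frequent in both directions at 5-fold, with 42 genes higher and 41 lower, while at 10-fold there were 12 higher and 22 lower. A gene under 5 CPM in one library can reach the floor of 10 CPM only by passing the rule, as 137 of the 675 genes did. The share of a list past the rule is therefore only a description, to be read beside the 5.38% and 2.62% over all genes. A lower sum over a library can come from fewer expressing cells or from less RNA in each, and the sums alone cannot tell these apart.

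**Figure D1:**
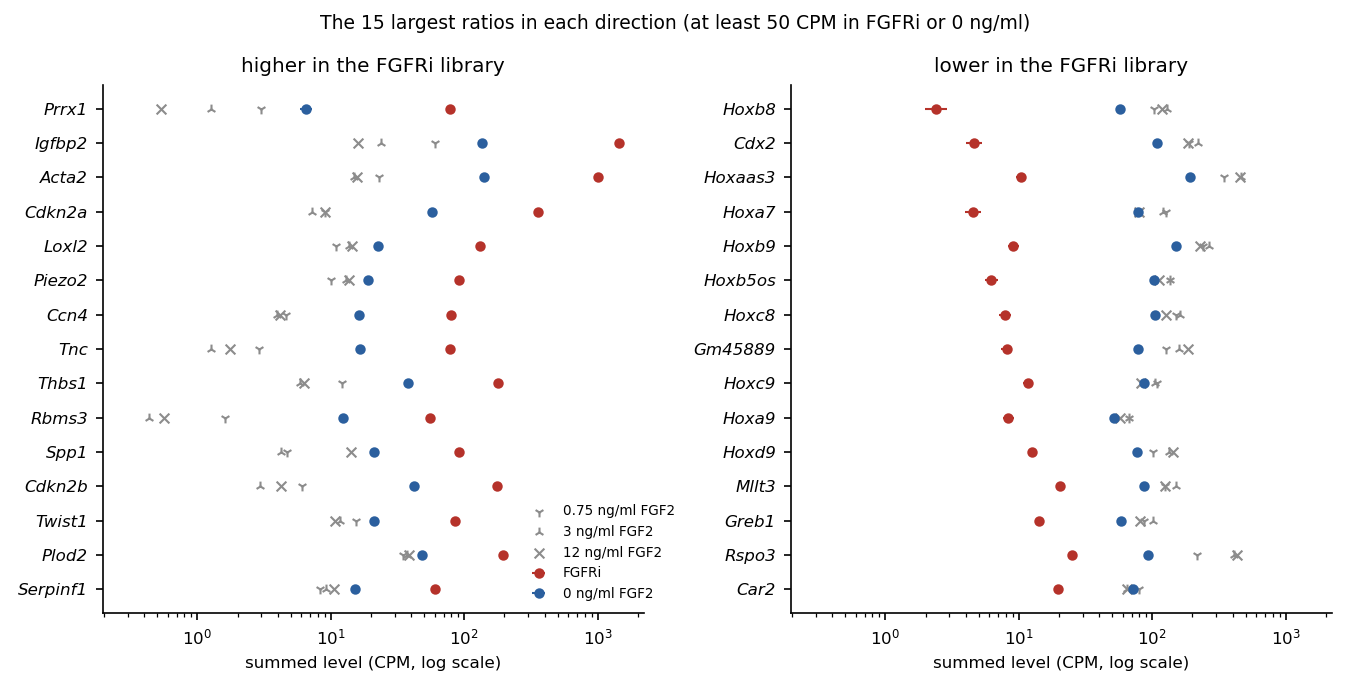
Summed levels (CPM, log scale) of the 15 genes with the largest ratios in each direction among genes at 50 CPM or more in the FGFRi or the 0 ng/ml library. Red and blue points are these libraries with exact 95% counting intervals, and gray symbols are the libraries with 0.75, 3 and 12 ng/ml FGF2. On the left every red point lies at least 4.02-fold to the right of the blue one, and on the right every red point lies at least 3.62-fold to the left.

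The 15 genes with the largest ratios on the higher side held transcription factors of mesenchyme, matrix genes and inhibitors of the cell cycle. Prrx1, a homeobox gene of limb and craniofacial mesenchyme, had 3723 against 371 UMIs and 77.8 against 6.53 CPM, 11.9-fold (10.7 to 13.3) higher. Igfbp2, which encodes a secreted binding protein of insulin-like growth factors, was at 1441 against 135 CPM, 10.7-fold (10.4 to 10.9) higher. Acta2, the actin of smooth muscle on chromosome 19 (chr19:34241090-34255590, GRCm38), was at 1008 against 141 CPM, 7.15-fold (6.98 to 7.32) higher. These 3 genes were at 2.98, 1.27 and 0.537 CPM, 59.96, 23.9 and 16.1 CPM and 23.02, 14.9 and 15.7 CPM with 0.75, 3 and 12 ng/ml FGF2, respectively. The neighboring genes Cdkn2a (354 against 57.5 CPM) and Cdkn2b (177 against 42.3 CPM) encode inhibitors of the kinases that start the cell cycle, and 3′ tags do not separate the p16 and Arf transcripts of Cdkn2a. Matrix and secreted genes followed, with Loxl2, a collagen crosslinking enzyme, at 131 against 22.6 CPM, Ccn4 at 79.2 against 16.4 CPM, tenascin C (Tnc) at 78.8 against 16.5 CPM, thrombospondin (Thbs1) at 179 against 38.1 CPM, osteopontin (Spp1) at 91.7 against 21.1 CPM, the lysyl hydroxylase Plod2 at 194 against 48.2 CPM and Serpinf1 at 60.8 against 15.1 CPM. The others were Piezo2, a mechanically gated channel (92.02 against 18.9 CPM), the RNA-binding protein gene Rbms3 (55.2 against 12.4 CPM) and Twist1, a driver of mesenchyme (84.9 against 20.96 CPM).

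On the lower side, 7 of the 15 genes were Hox genes and 2 more were antisense transcripts of the Hox clusters. Hoxb8 had 115 against 3228 UMIs and 2.405 against 56.8 CPM, 23.6-fold (19.6 to 28.7) lower. Cdx2, a caudal homeobox gene on chromosome 5 (chr5:147300805-147307270), was at 4.64 against 109 CPM, 23.5-fold (20.5 to 26.9) lower. The antisense genes Hoxaas3 (10.4 against 193 CPM) and Hoxb5os (6.23 against 102 CPM) overlap Hox genes on the other strand, and how far reads were divided between the partners is uncertain. The long noncoding RNA Gm45889 was at 8.11 against 77.5 CPM. The remaining 4 genes were Mllt3 (20.4 against 86.8 CPM), a subunit of the super elongation complex, Greb1 (14.2 against 58.2 CPM), Rspo3 (24.9 against 93.03 CPM), a secreted enhancer of Wnt signaling, and the carbonic anhydrase Car2 (19.7 against 71.4 CPM).

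The FGF pathway itself was read from its target genes, ligands and receptors. Of 20 ERK target and feedback genes, 17 reached 10 CPM. Past the rule, 8 of these were lower and 1 was higher in the FGFRi library. Over all genes at the floor, 2.62% were lower and 5.38% higher past the rule. Of the 17, 6 had reached the floor through the 0 ng/ml library alone and 1 through the FGFRi library alone. Over all 20, 15 had the lower value and 5 the higher in the FGFRi library. Etv4, an Ets factor and a direct readout of FGF signaling on chromosome 11 (chr11:101769742-101785371), was at 1.38 CPM in the FGFRi library and 15.9 CPM at 0 ng/ml FGF2, 11.5-fold (8.97 to 15.04) lower, and at 26.5, 40.5 and 46.4 CPM with 0.75, 3 and 12 ng/ml FGF2. Its relative Etv5 was at 2.45 against 18.9 CPM, 7.71-fold (6.36 to 9.41) lower. The feedback genes at the floor were closer between the libraries, with the ERK phosphatases Dusp6 at 8.28 against 24.4 CPM and Dusp4 at 9.07 against 24.1 CPM, Spry1 at 4.52 against 12.4 CPM, the receptor antagonist Il17rd at 15.1 against 36.9 CPM, and Spred3 and Spred2 at 5.71 against 13.03 CPM and 14.6 against 32.7 CPM. The feedback gene Spry4 stayed below 10 CPM in both but had a larger ratio than Etv5, at 0.565 against 5.88 CPM, 10.4-fold (7.03 to 16.04) lower. The study measured a fluorescent Spry4 reporter in another cell line. Without FGF its level was strongly reduced, and the inhibitor did not lower it further. The study also reported only a mild decrease in ERK phosphorylation at this inhibitor dose. Why the RNA sums and these measures differ was not tested.

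Not every ERK target had the lower level in the FGFRi library. Egr1, an immediate early gene, was at 76.4 against 31.01 CPM, 2.46-fold (2.33 to 2.61) higher, and with 0.75, 3 and 12 ng/ml it was at 27.04, 22.3 and 29.5 CPM. Other immediate early genes, Fos (17.4 against 9.56 CPM) and Ier3 (33.8 against 18.1 CPM), had higher values without reaching a ratio of 2. Phlda1 (105 against 108 CPM), Spry2 (24.2 against 32.04 CPM) and Spred1 (35.9 against 58.1 CPM) were also within the rule. The median difference of log2(CPM + 1) over the 17 genes was −0.68, and the sum of the whole list was 486 against 565 CPM.

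Ligand genes summed to 6.82 against 50.5 CPM. Of the 11 listed, 6 had the lower value and 4 the higher in the FGFRi library. The 2 at the floor, Fgf17 and Fgf8, had reached it through the 0 ng/ml library alone. Fgf17, on chromosome 14 (chr14:70636203-70642268), was at 0.209 CPM in the FGFRi library and 14.3 CPM at 0 ng/ml FGF2, with 10 against 810 UMIs, 68.2-fold (36.9 to 143) lower. Fgf8, the main ligand of the primitive streak and caudal growth zone, was at 2.43 against 24.5 CPM, 10.1-fold (8.37 to 12.3) lower. Both were higher in the other 3 libraries, Fgf17 at 26.3, 50.4 and 48.9 CPM and Fgf8 at 72.3, 156 and 160.4 CPM with 0.75, 3 and 12 ng/ml. The 9 other ligand genes of the list were below 10 CPM in both, with Fgf9 at 1.004 against 4.49 CPM, Fgf3 at 0.0836 against 3.61 CPM, Fgf4 at 0 against 0.669 CPM, Fgf5 at 1.401 against 0.317 CPM and Fgf2 itself at 0.335 against 0.264 CPM. Fgf10 had no UMI in either library.

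Receptors and adaptors showed far smaller differences. Fgfr1, the main receptor of epiblast and mesoderm, was at 55.5 against 64.7 CPM, a ratio of 0.859. Fgfr2, the receptor of many epithelia, was at 26.7 against 13.9 CPM (1.93-fold (1.77 to 2.11) higher), just under the rule, with 9.38, 3.81 and 1.94 CPM at 0.75, 3 and 12 ng/ml FGF2. Fgfr3 (1.57 against 0.845 CPM) and Fgfr4 (0.0627 against 0 CPM) were near 0. Of the 10 members at the floor, Flrt3, a membrane protein that binds FGF receptors, was past the rule at 73.5 against 34.5 CPM, and none was lower by 2-fold. The adaptors Grb2, Frs2, Gab1, Shc1 and Ptpn11 lay between ratios of 1.02 and 1.15. Of 9 other receptor tyrosine kinases at the floor, Flt1 (75.97 against 22.02 CPM) and Axl (19.5 against 6.58 CPM) were higher and Kit (2.802 against 11.4 CPM) was lower past the rule, whereas Egfr (14.2 against 8.48 CPM) and Met (18.3 against 10.4 CPM) had higher values within it.

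Genes of the primitive streak summed to 20.8 against 128 CPM and those of the caudal growth zone to 67.6 against 253 CPM. The 5 streak genes at the floor were lower past the rule, against 2.62% of all genes there, but 4 of them had reached the floor through the 0 ng/ml library alone. Over all 12 streak genes, 10 had the lower value and 2 the higher in the FGFRi library. T, the T-box factor brachyury on chromosome 17 (chr17:8434423-8442496), was at 0.753 CPM in the FGFRi library and 26.7 CPM at 0 ng/ml FGF2, 35.4-fold (25.5 to 50.8) lower, against 92.7, 205 and 208 CPM with 0.75, 3 and 12 ng/ml. Evx1 was at 1.15 against 11.5 CPM, and the Wnt-responsive zinc finger genes Sp8 and Sp5 were at 2.97 against 25.8 CPM and 10.9 against 33.8 CPM. Among the 7 streak genes below the floor were Mixl1 at 0.125 against 1.94 CPM, Mesp1 at 0.125 against 1.58 CPM and Eomes at 0.125 against 0.246 CPM.

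The caudal genes Epha5 (0.606 against 12.8 CPM) and Nkx1-2 (1.296 against 10.6 CPM) were past the rule together with Cdx2, while Sox2 (15.1 against 26.98 CPM) and Grsf1 (43.6 against 74.6 CPM) were not. All 10 members of the caudal list had the lower value in the FGFRi library, 5 of them below the floor. Among presomitic genes, Hes7, an oscillator of the segmentation clock (chr11:69120404-69124055), was at 0.523 against 29.3 CPM, 56.1-fold (37.9 to 86.99) lower. Pax3 was at 4.37 against 14.5 CPM, and Rspo3 was also past the rule. These were the 3 presomitic genes at the floor, and 2 of them had reached it through the 0 ng/ml library alone. Over all 14 presomitic genes, 10 had the lower value and 4, all below the floor, the higher in the FGFRi library. The presomitic regulator Tbx6 was below the floor, at 0.23001 against 5.86 CPM, and the Notch ligands Dll1 and Dll3 were at 2.11 against 8.82 CPM and 0.418 against 7.69 CPM. Msgn1 and Ripply2, further markers of presomitic cells, were without a UMI in the FGFRi cells, against 0.334 and 0.0176 CPM at 0 ng/ml, which is near the limit of detection.

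Hox genes, which pattern the body axis in 4 gene clusters, had a summed level of 128 against 1017 CPM. Of 39 members 38 had the lower value in the FGFRi library, and Hoxc13 (3.41 against 1.39 CPM) was the exception. At the floor stood 20 of them, and 19 were lower past the rule, with a median difference of −3.00. The floor is met almost entirely through the 0 ng/ml library here, so the share past it has little meaning of its own. The HoxB cluster on chromosome 11 differed most, with 22.1 against 347 CPM over 10 genes, 15.7-fold (14.7 to 16.7) lower. The HoxC cluster was at 30.8 against 286 CPM (9.303-fold (8.82 to 9.82) lower), HoxD at 27.998 against 163 CPM (5.81-fold (5.48 to 6.15) lower) and HoxA at 47.2 against 221 CPM (4.68-fold (4.48 to 4.901) lower).

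Within the family, the paralog groups of the trunk differed most, with group 7 at 5.44 against 92.99 CPM (17.1-fold (15.1 to 19.4) lower), group 6 at 4.73 against 60.2 CPM (12.7-fold) and group 8 at 15.6 against 185 CPM (11.9-fold). Group 9 held the largest sum at 0 ng/ml, 41.7 against 366 CPM. Groups 2 to 5 lay between ratios of 5.95 and 9.78. The sums of groups 10 and 11 had smaller ratios, 3.89 and 2.36, although Hoxc10 alone was at 0.648 against 14.4 CPM, 22.3-fold (15.6 to 32.99) lower. Group 13 was low in both and had the higher sum in the FGFRi library, at 3.95 against 2.97 CPM (189 against 169 UMIs). Its ratio of 0 ng/ml over FGFRi was 0.753 (0.608 to 0.931).

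Promoters of 2 Hox genes with large ratios, Hoxb8 and Hoxa7, are shown for TTTATG, a sequence that Cdx factors bind. Both are among the Hox genes found to hold it. Hoxb9, Hoxc8, Hoxc9, Hoxa9 and Hoxd9, also among the leading genes, are not, and not every Hox gene had a window. Whether Cdx2 acts on any of these genes was not tested. The letters TTTATG were searched on both strands in the 250 bases before each start site (RefSeq, GRCm38.p6), and they are written in capitals, as CATAAA where they lie on the opposite strand.
Hoxb8: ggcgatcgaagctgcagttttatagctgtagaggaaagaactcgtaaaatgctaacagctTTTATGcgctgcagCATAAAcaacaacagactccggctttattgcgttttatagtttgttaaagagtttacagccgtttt
Hoxa7: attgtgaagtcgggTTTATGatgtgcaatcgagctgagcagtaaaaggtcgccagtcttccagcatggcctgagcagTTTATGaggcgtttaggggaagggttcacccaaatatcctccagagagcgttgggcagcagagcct
The Hoxb8 stretch (chr11:96281688-96281827, plus strand) holds the letters on each strand, 8 bases apart, and the Hoxa7 stretch (chr6:52218681-52218823, minus strand) holds them in 2 places. Shares of lists and other groups of genes count a gene with a window once, if any of its windows held the letters. TTTATG was found in 5 of 22 Hox genes (Hoxa7, Hoxb8, Hoxd3, Hoxd4 and Hoxd11), against 6.61% of genes at the floor. It was found in 11.7% of the genes lower past the rule and 7.26% of those higher. Counted per window, an unlike unit, it was in 10.8% of all 32851 windows. These matches are a description of the letters and show no binding. The Ets sequence CCGGAAGT was in 0 of 13 genes of the ERK target list with a window, and in 7.94% of genes at the floor.

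In the list for intermediate and lateral plate mesoderm, 6 of 12 genes had the higher and 5 the lower value in the FGFRi library. Of the 4 at the floor, Prrx1, Twist1 and Prrx2 (44.1 against 15.1 CPM), factors of mesenchyme, were higher past the rule, and Snai2 was at 13.9 against 7.798 CPM. Over all genes at the floor 5.38% were higher past the rule, and 2 of these 4 had reached the floor through the FGFRi library alone. The defining genes of intermediate mesoderm, limb and splanchnic mesoderm were below the floor in both. Osr1 (0.314 against 0.845 CPM), Pax2 (0.355 against 1.67 CPM) and Foxf1 (0.418 against 3.89 CPM) had the lower value in the FGFRi library, and Tbx5 was without a UMI. Among proximal and extraembryonic mesoderm genes, the matrix gene Postn (24.3 against 1.94 CPM, 12.5-fold (10.3 to 15.4)) and Ahnak (704 against 313 CPM) were higher, whereas Msx1 (49.5 against 138 CPM) was lower and Hand1 (63.5 against 85.7 CPM), Bmp4 (86.5 against 76.2 CPM) and Msx2 (93.05 against 77.1 CPM) were within the rule. Runx1, a regulator of blood development that other tissues also express, was at 189 against 57.2 CPM, 3.31-fold (3.18 to 3.45) higher. It made up most of the hemato-endothelial sum of 204 against 81.7 CPM. The endothelial receptor Kdr was below the floor at 3.51 against 0.422 CPM, 8.32-fold (5.402 to 13.3) higher, and Pecam1 was at 3.91 against 2.89 CPM. The endothelial markers Cdh5 (0.0209 against 0.106 CPM) and Tek (0.125 against 0.0352 CPM) and the blood markers Tal1 (0.0627 against 0.0352 CPM) and Gata1 (0 against 0.0352 CPM) were at or near 0.

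Contractile genes were higher as a group, with 11932 against 4939 CPM in sum. Of 19 members 18 had the higher value in the FGFRi library, and of the 17 at the floor 7 were past the rule and none was lower by 2-fold. Over all genes at the floor 5.38% were higher past the rule. Of the 17, 1 had reached the floor through the FGFRi library alone. Tagln, which encodes the actin-binding protein transgelin, was at 1915 CPM in the FGFRi library and 478 CPM at 0 ng/ml FGF2, 4.01-fold (3.96 to 4.06) higher, and at 105, 22.9 and 41.96 CPM with 0.75, 3 and 12 ng/ml FGF2. Tropomyosin 1 (Tpm1) was at 3820.5 against 1699 CPM, caldesmon (Cald1) at 1800.1 against 743 CPM, the myosin light chain Myl9 at 42.2 against 16.99 CPM, Csrp1 at 315 against 142 CPM and Tpm2 at 298 against 139.6 CPM. Broadly used cytoskeletal genes such as Flna (482 against 272 CPM), Myh9 (577 against 346 CPM) and Actn1 (416 against 253 CPM) had smaller ratios. The smooth muscle coactivator Myocd (2.57 against 0.581 CPM) and the enteric actin Actg2 (6.88 against 1.25 CPM) were below the floor, and Srf, the factor that drives many contractile genes, was at 13.05 against 14.8 CPM.

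Promoters of 3 contractile genes are shown for the CArG box, the sequence that Srf binds, which is CC, then 6 bases of A or T, then GG. Capitals mark it.
Myl9: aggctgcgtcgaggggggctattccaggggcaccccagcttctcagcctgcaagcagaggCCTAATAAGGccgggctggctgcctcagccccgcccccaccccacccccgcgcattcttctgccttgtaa
Vcl: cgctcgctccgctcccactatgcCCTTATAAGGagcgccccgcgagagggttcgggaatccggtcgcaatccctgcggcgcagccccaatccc
Cnn2: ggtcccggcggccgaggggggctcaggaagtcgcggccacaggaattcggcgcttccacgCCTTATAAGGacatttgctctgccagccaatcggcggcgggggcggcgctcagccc
These stretches lie at chr2:156775243-156775372, chr14:20929148-20929240 and chr10:79988484-79988599 on the plus strand of GRCm38.p6, before the RefSeq starts. Myl9 was past the rule, while Vcl (224 against 112 CPM) and Cnn2 (415 against 209 CPM) were just under a ratio of 2. A CArG box was found in 5 of 16 contractile genes with a window (Acta1, Cnn2, Myl9, Srf and Vcl), against 1.45% of genes at the floor. Counted per window, it was in 1.47% of all windows. It was in 2.79% of genes higher past the rule and 0.649% of those lower. No match to this strict pattern was found for Acta2 in these 250 bases, and boxes that differ from it by a base were not searched. The AP-1 sequence TGACTCA was found in 7.54% of the higher genes, 3.90% of the lower and 3.42% at the floor. The Tead sequence GGAATG was found in 18.99%, 11.04% and 12.2%, and in 7 of the 16 contractile genes. All 5 motifs were chosen after the levels had been seen.

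Genes that respond to YAP and TGF-beta were also higher. All 14 listed members had the higher value in the FGFRi library, and of the 13 at the floor 6 were past the rule. The share over all genes at the floor was 5.38%, and 2 of the 13 had reached the floor through the FGFRi library alone. Ccn1 and Ccn2, secreted proteins and standard readouts of YAP, were at 171 against 75.02 CPM and 31.01 against 10.1 CPM. Tgfbi was at 77.4 against 24.3 CPM, Crim1 at 47.4 against 14.1 CPM and Axl, named above, was also in this list. Feedback and ligand genes had smaller ratios, with Smad7 at 123 against 100.4 CPM, Tgfb2 at 132 against 97.4 CPM, Amotl2 at 87.3 against 58.5 CPM and Lats2 at 20.4 against 12.6 CPM.

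Matrix genes had a median difference of 1.42 over the 18 members at the floor, and 11 of these were past the rule, all higher. Among all genes at the floor 5.38% were higher past it, and 3 of the 18 had reached the floor through the FGFRi library alone. Fibrillar collagen Col1a1 was at 24.2 CPM in the FGFRi library and 2.18 CPM at 0 ng/ml FGF2, 11.1-fold (9.21 to 13.5) higher, and at 0.564, 0.464 and 0.706 CPM in the libraries with FGF2. Col1a2 was at 49.97 against 17.4 CPM, Col3a1 at 28.2 against 10.2 CPM and Col5a1 at 122 against 40.96 CPM. Basement membrane genes took part as well, with collagen IV genes Col4a1 at 262 against 72.4 CPM and Col4a2 at 183 against 54.5 CPM, nidogen 1 at 20.7 against 4.93 CPM and Lama1 at 13.8 against 4.08 CPM, whereas Lama5 (48.6 against 47.9 CPM) and Lamc1 (67.1 against 54.3 CPM) were within 1.5-fold. Fibronectin (Fn1) was at 826 against 293 CPM, with 179, 259 and 387 CPM at 0.75, 3 and 12 ng/ml. Markers of mature fibroblasts remained low, with Dcn at 2.17 against 1.901 CPM, Lum at 1.38 against 0.8097 CPM and Lox at 0.0418 against 0 CPM.

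Annexin and S100 genes encode calcium-binding proteins of the membrane and cytoskeleton, and their list also held related genes of other families, such as Pmp22. In this list 14 of 17 genes at the floor were higher past the rule. This compares with 5.38% of all genes at the floor, and 2 of the 17 had reached it through the FGFRi library alone. The summed level of the list was 6134 against 2735 CPM. S100a11 was at 1249.9 against 517 CPM, S100a6 at 663 against 302 CPM, Anxa2 at 469.8 against 187 CPM, Anxa5 at 449 against 159 CPM and Pmp22 at 250.1 against 67.7 CPM. S100a4, often used as a fibroblast marker, was at 10.3 against 2.53 CPM. In the list for epithelial to mesenchymal transition, 5 of 9 genes at the floor were higher past the rule, and 2 of the 9 had reached the floor through the FGFRi library alone. Vimentin (Vim), the intermediate filament of mesenchyme, was at 1203 CPM in the FGFRi library and 320.1 CPM at 0 ng/ml FGF2, 3.76-fold (3.696 to 3.82) higher, and the matrix proteases Mmp14 and Mmp2 were at 72.996 against 22.4 CPM and 12.4 against 4.08 CPM. N-cadherin (Cdh2) was at 86.3 against 57.2 CPM, Zeb1 at 28.7 against 15.5 CPM and Zeb2 at 55.4 against 29.8 CPM, all within the rule, and Snai1 was at 4.24 against 4.95 CPM.

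Epithelial genes did not form a depleted group. The 18 keratin and junction genes at the floor had a median difference of 0.01. This median lay between −0.18 and 0.004 under the alternatives, below 0 in 7 of 9. Past the rule 3 of the 18 were higher and none lower, against 5.38% and 2.62% of all genes at the floor. E-cadherin (Cdh1) was at 85.8 against 93.6 CPM, a ratio of 0.916, Epcam was at 267 against 332 CPM and Krt8 at 942 against 823 CPM. The genes past the rule were Perp (128 against 60.3 CPM), Cldn4 (13.5 against 6.11 CPM) and Krt7 (29.8 against 12.2 CPM). The epithelial splicing factor Esrp1 had the lowest ratio of the list, 0.561, at 20.01 against 35.6 CPM.

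Surface ectoderm markers were divided. Tfap2a, an early factor of surface ectoderm, was at 93.3 against 47.6 CPM and Trp63 at 22.2 against 13.9 CPM, both within the rule, and Krt14 was past it at 10.7 against 2.29 CPM. Tfap2c (20.8 against 44.6 CPM), Gata2 (5.23 against 11.9 CPM) and Dlx5 (3.53 against 10.3 CPM) were lower. Of 7 trophoblast and extraembryonic ectoderm markers at the floor, 4 were lower past the rule, among them Ascl2 (4.6001 against 24.9 CPM) and Peg10 (130.0 against 279 CPM), with Cdx2 and Tfap2c shared with other lists. Of all genes at the floor 2.62% were lower past the rule, and 2 of these 7 had reached it through the 0 ng/ml library alone. Elf5 (0.0418 against 0.0704 CPM) and Esrrb (0.188 against 0.334 CPM), also in this list, were near 0. Ascl2 and Gata2 were among the leading genes of cluster 4 of the joint clustering below. They were at 243 and 142 CPM there and at 2.87 and 2.93 CPM in the other cells (mean of both libraries). That cluster held 1.94% of FGFRi cells and 6.84% of cells at 0 ng/ml. Whether its share accounts for their lower sums was not tested.

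Most markers of other cell types that could arise were below 10 CPM in both libraries. None of 13 endoderm markers reached 10 CPM, and Sox17 was the highest at 0.293 against 3.36 CPM. Of the neurectoderm list only Sox2 and Irx3 (22.9 against 23.8 CPM) reached the floor, and Sox1 was at 0.0836 against 1.18 CPM and Pax6 at 0.0418 against 0.0704 CPM. The crest markers Sox10 (0.105 against 0.0704 CPM) and Foxd3 (0.0209 against 0.0528 CPM) and the germ cell markers Prdm14 (0 against 0.0704 CPM) and Dppa3 (0 against 0.0704 CPM) were near 0. The crest list reached the floor with Ets1 (52.3 against 29.5 CPM) and Sox9 (13.6 against 17.5 CPM), within the rule and also used by other tissues, and summed to 79.1 against 58.4 CPM. The germ cell list reached it with Kit and Tfap2c, both given above. In the cardiac list only Actc1 reached the floor, at 24.8 against 12.9 CPM, and Nkx2-5 was at 0.105 against 0.08801 CPM. Markers of the starting EpiSCs were low after 3 days, with Pou5f1 at 1.74 against 3.75 CPM and Nanog at 0.46001 against 0.704 CPM. Among epiblast genes Lin28a, an RNA-binding protein of early embryos, was lower at 49.2 against 154 CPM and Otx2 was higher at 12.02 against 2.57 CPM. Of all 14 epiblast genes, 11 had the lower value and 2 the higher in the FGFRi library, and of the 7 at the floor 6 had the lower. The list summed to 178 against 338 CPM.

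**Figure D2:**
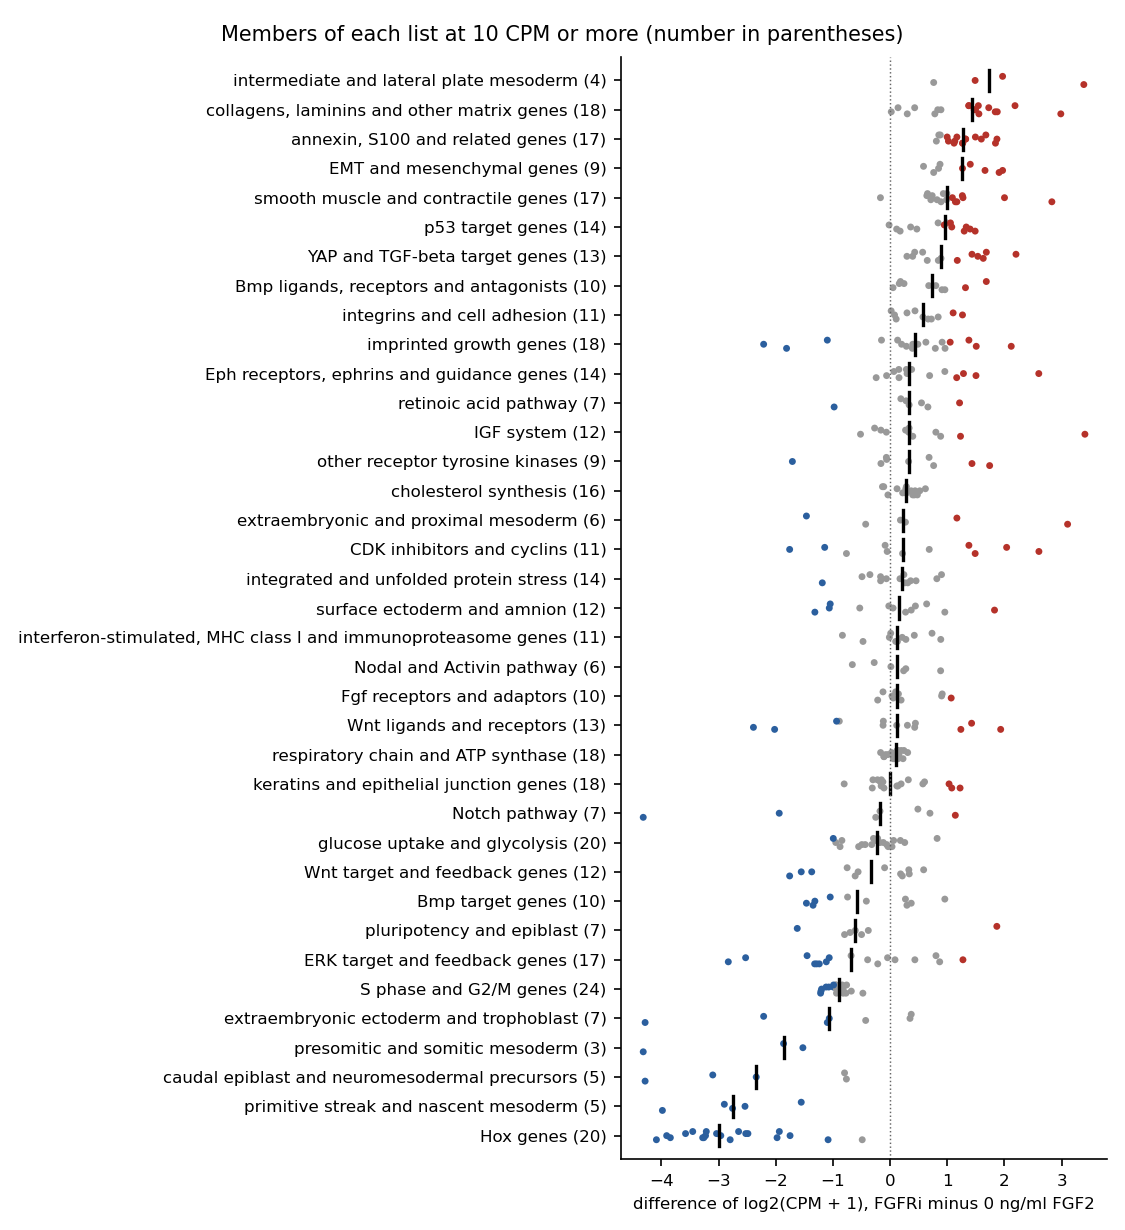
Difference of log2(CPM + 1) between the FGFRi and the 0 ng/ml library for the members of each list that reached 10 CPM on either side (number in parentheses, lists with at least 3 such members). Red and blue points are members past the ratio of 2, gray points are within it, and black bars are medians, which run from −3.00 for Hox genes to 1.42 for matrix genes and 1.73 for the 4 of 12 intermediate and lateral plate genes at the floor, 2 of which reached it through the FGFRi library alone. The median over all 8445 genes was −0.0004.

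Both cultures received BMP, and components and targets of that pathway moved in different directions. Noggin (Nog) and Bambi, which dampen BMP signaling and are induced by it, were at 44.04 against 13.03 CPM and 169 against 67.1 CPM, both past the rule, and Bmp2 was at 92.5 against 52.7 CPM within it. Of 10 BMP target genes at the floor, 4 were lower and none higher past the rule, against 2.62% lower and 5.38% higher over all genes. Of the 10, 2 had reached the floor through the 0 ng/ml library alone. Id1, a direct target, was at 64.005 CPM in the FGFRi library and 164 CPM at 0 ng/ml FGF2, 2.57-fold (2.46 to 2.68) lower, with Id3 at 148 against 248 CPM and Id2 at 211 against 281 CPM. Msx1, Dlx5 and Gata2 were the other 3, while the targets Msx2, Gata3 (15.5 against 11.8 CPM) and Tfap2a had higher values within the rule.

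Both cultures likewise received the Wnt agonist. The caudal Wnt genes Wnt5b (1.69 against 13.1 CPM) and Fzd10 (8.26 against 36.5 CPM) were lower, and Wnt3a was at 1.23 CPM at 0 ng/ml and had no UMI in the FGFRi library. Wnt3 (50.02 against 20.6 CPM), Wnt9a (13.05 against 2.68 CPM) and Fzd8 (15.3 against 5.07 CPM) were higher past the rule. Of 12 Wnt targets at the floor, Ccnd1 (29.4 against 102 CPM), Sp5 and Apcdd1 (7.65 against 21.4 CPM) were lower past it, and the general target Axin2 was at 44.2 against 68.01 CPM, a ratio of 0.6499. Over all genes at the floor 2.62% were lower past the rule. Of the Nodal and Activin pathway 6 genes reached the floor and none was past the rule, against 7.99% of all genes there. In the Notch pathway Hes7 and Nrarp (3.18 against 15.01 CPM) were lower and the ligand Jag1 (19.5 against 8.31 CPM) was higher. Retinoic acid genes were mixed, with the enzyme Rdh10 at 76.5 against 32.4 CPM and the receptor Rarg at 12.2 against 25.1 CPM.

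Growth genes beside Igfbp2 had modest ratios. Igf2, the fetal growth factor, was at 358 against 272 CPM, Igf1r at 114 against 90.97 CPM, Igfbp5 at 237 against 135 CPM and Igfbp4 at 132 against 71.2 CPM, all within the rule, and Irs1 was past it at 20.3 against 8.08 CPM. Among 18 imprinted genes at the floor, Plagl1 (28.96 against 5.897 CPM), Dlk1 (29.7 against 9.804 CPM), Cdkn1c (31.99 against 11.7 CPM) and Meg3 (236 against 113 CPM) were higher, and Phlda2 (177 against 624 CPM), Peg10 and Ascl2 were lower. Over all genes at the floor 5.38% were higher and 2.62% lower past the rule. Plagl1 encodes a factor that limits proliferation, and Cdkn1c is an inhibitor of the cell cycle.

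Cell cycle genes were lower throughout. All 24 S phase and G2/M genes reached the floor and all 24 had the lower value in the FGFRi library, with ratios from 0.428 for Mki67 (93.2 against 218 CPM) to 0.717 for Tyms, and 7 were past the rule. The list summed to 1776 against 3389 CPM, and 2.62% of all genes at the floor were lower past the rule. Besides Mki67 these 7 were the replication helicase genes Mcm7 (63.2 against 147 CPM), Mcm5 and Mcm3, the mitotic genes Cenpf (137 against 299.6 CPM) and Plk1, and Rrm2 at 2.01-fold. Cyclins of the G1 phase differed among themselves, with Ccnd1 and Ccne1 (10.7 against 24.9 CPM) lower past the rule and Ccnd2 (165 against 175 CPM) and Ccnd3 (112 against 116 CPM) within it.

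Inhibitors of cyclin-dependent kinases had higher values alongside. Besides Cdkn2a and Cdkn2b, Cdkn1a (p21) was at 330.4 CPM in the FGFRi library and 117 CPM at 0 ng/ml FGF2, 2.82-fold (2.74 to 2.903) higher, and at 112, 119 and 123 CPM with 0.75, 3 and 12 ng/ml. Cdkn1b was at 46.8 against 28.7 CPM. Of 14 p53 target genes at the floor, 7 were higher past the rule and none lower, against 5.38% higher over all genes. Of the 14, 1 had reached the floor through the FGFRi library alone. Mdm2, the negative regulator of p53, was at 137 against 53.9 CPM, Trp53inp1 at 90.6 against 33.7 CPM, Plk2 at 221 against 89.3 CPM and Btg2 at 94.7 against 45.01 CPM. The apoptosis genes of the list had ratios near 1, with Bax at 274 against 278 CPM and Bbc3 at 18.9 against 16.6 CPM.

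Metabolic genes mostly lay within the rule. The 18 respiratory chain genes lay between ratios of 0.891 and 1.24, and the 16 cholesterol synthesis genes between 0.909 and 1.54. Of 20 genes for glucose uptake and glycolysis, 15 had the lower value, and only the lactate exporter Slc16a3 (11.5 against 23.9 CPM) was past the rule, with lactate dehydrogenase Ldha at 364 against 653 CPM. Of 14 stress genes at the floor only Psat1 (59.3 against 136 CPM) was past it, and the stress regulators Ddit3 (11.7 against 9.28 CPM) and Atf4 (92.8 against 119 CPM) were not. None of 11 interferon and antigen presentation genes at the floor was past the rule. Over all genes at the floor 7.99% were past it, so the low counts of these short lists say little about their genes. Among guidance and adhesion genes, Nrp1, a coreceptor for semaphorins and VEGF, was at 34.9 against 4.91 CPM, 7.098-fold (6.25 to 8.09) higher, with Sema3c (56.4 against 19.3 CPM), Efnb2 (62.5 against 25.1 CPM) and Plxna2 (61.5 against 26.9 CPM) also past the rule. The fibronectin receptor subunits Itga5 (49.7 against 20.1 CPM) and Itgb1 (617 against 286 CPM) were higher with their ligand Fn1.

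Single cells showed how these sums were spread. Each cell was thinned to 5000 UMIs so that the deeper library had no advantage, which left out no cell. Hoxb8 was detected in 1.29% against 23.6% of cells (3.47% and 50.8% without thinning), Cdx2 in 2.23% against 34.6% of cells (7.76% and 68.9% without thinning) and T in 0.353% against 9.79% of cells (1.29% and 24.6% without thinning). Etv4 was detected in 0.4703% against 7.78% of cells (3.59% and 28.3% without thinning). On the other side, Acta2 was detected in 49.7% against 17.2% of cells (66.3% and 35.3% without thinning), Igfbp2 in 81.2% against 23.2% of cells (93.5% and 48.1% without thinning) and Cdkn2a in 53.8% against 13.9% of cells (74.1% and 30.01% without thinning). For each of these genes the libraries differed in the share of cells with a UMI. At this depth the share of a gene with a low level largely follows its sum. For such genes, Hoxb8, T and Etv4 among them, the share cannot tell fewer expressing cells from less RNA in each.

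The epithelial and mesenchymal cadherins were closer. Cdh1 was detected in 28.2% against 31.1% of cells (56.8% and 65.04% without thinning) and Cdh2 in 30.2% against 20.8% of cells (57.3% and 50.4% without thinning). The proliferation marker Mki67 was detected in 24.3% against 49.2% of cells (44.5% and 79.7% without thinning), and Lin28a in 20.6% against 51.5% of cells (60.02% and 95.3% without thinning). Free RNA can add UMIs of a gene to cells that lack its transcript, and the group of cells with the lowest share in each library, among the clusters of the joint clustering described further on, gives an upper bound for this. For Hoxb8 this was 0 of the 600 cells of cluster 0 in the FGFRi library, which allows a share of up to 0.5%, and 1.72% of the 116 cells of cluster 4 at 0 ng/ml. Acta2 had a UMI in 6.06% (0.743% to 20.2%) of the 33 FGFRi cells and 1.72% of the 116 other cells of cluster 4. In cluster 3, Igfbp2 had one in 12.0% against 4.57% and Cdkn2a in 1.33% against 0.762% of 75 and 525 cells. Cells of these clusters had median depths of 22091.5 (cluster 0), 21765 (cluster 3) and 25123 UMIs (cluster 4) in the FGFRi library and 28797 (cluster 3) and 31328 (cluster 4) at 0 ng/ml before thinning. For these 4 genes the share over each whole library lay above its bound. T had no UMI in the 600 FGFRi cells of cluster 0, and Etv4 none in the 33 of cluster 4. These counts allow up to 0.5% and 9.09%, above the share of either gene over the whole FGFRi library. The few FGFRi cells with T or Etv4 can therefore not be told from free RNA in this way.

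**Figure D3:**
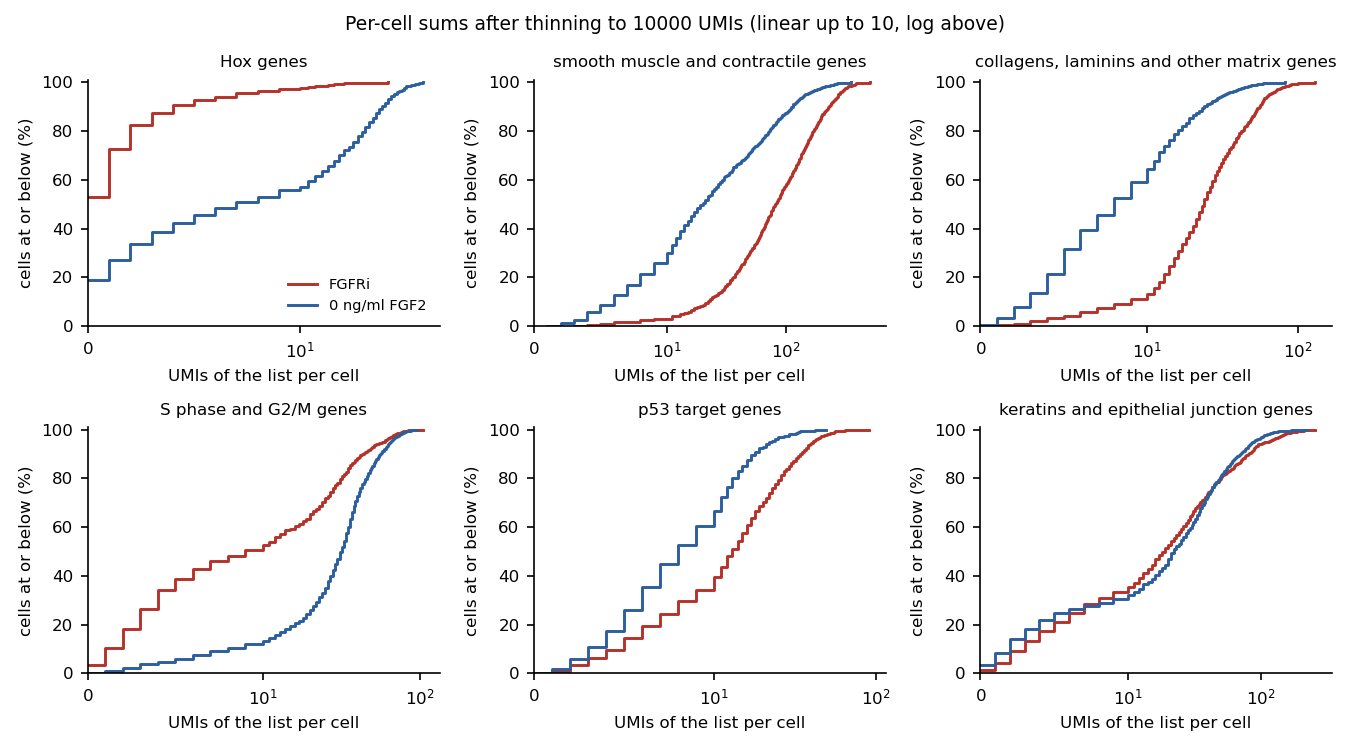
Cumulative share of cells (%) against the UMIs of a list per cell (linear up to 10, logarithmic above), after each cell was thinned to 10000 UMIs, for 1662 FGFRi cells (red) and 1679 cells at 0 ng/ml FGF2 (blue). The curves lie apart for Hox, contractile, matrix, cell cycle and p53 target genes, and nearly together for keratins and epithelial junction genes, with medians of 19 and 22 UMIs.

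Sums of a list per cell were taken after thinning to 10000 UMIs, which left out 39 and 17 shallow cells. The median FGFRi cell held 0 Hox UMIs and the median cell at 0 ng/ml held 7, and 52.9% against 19.1% of cells held none. The remaining Hox UMIs of the FGFRi library were concentrated, since the 5% of cells with the most held 38.7% of them, against 16.5% at 0 ng/ml. Contractile genes were spread the other way, with a median of 81 UMIs (10th to 90th percentile 22 to 227) against 20 (6 to 112), and 91.2% of FGFRi cells lay above the median of 0 ng/ml. Matrix genes had medians of 24 and 8 UMIs, and annexin, S100 and related genes 52 and 13. For matrix genes 91.03% of FGFRi cells lay above the median of the other library.

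S phase and G2/M genes had a median of 9 UMIs per cell (1 to 43) against 32 (8 to 56). Of FGFRi cells 45.97% lay below the lowest decile of 0 ng/ml, while the highest deciles were close, at 43 and 56. The lower sum of the FGFRi library thus came with a large set of cells that had few cell cycle UMIs. For p53 targets the medians were 13 and 8, and 33.5% of FGFRi cells lay above the highest decile of 0 ng/ml. For ERK targets as a whole they were 4 and 5.

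To see whether the differences were also there within classes of cells, cells were divided by detection of Cdh1 and Cdh2 at 10000 UMIs. Cells with Cdh1 only made up 33.7% of the FGFRi library and 39.1% at 0 ng/ml, and cells with Cdh2 only 34.7% and 25.2%. Both were detected in 7.16% and 7.09%, and neither in 24.4% and 28.6%. These are classes of detection and not cell types, and they need not hold like cells of the libraries. Cluster 3 of the joint clustering below held 61.6% of the Cdh2 UMIs at 0 ng/ml but 4.99% in the FGFRi library. There, clusters 1 and 2 held 42.8% and 47.9%, against 23.9% and 10.7% at 0 ng/ml. Median depths were similar between classes of a library, from 24226 to 27538 and from 29427 to 33858 UMIs.

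Hox genes were lower in each cadherin class, at 54.8 against 502 CPM in Cdh1-only cells and 202 against 1849.6 CPM in Cdh2-only cells. Acta2 was higher in each, at 589 against 139 CPM and 1463 against 128 CPM, and Igfbp2 was at 2156 against 196 CPM and 716 against 43.8 CPM. S phase and G2/M genes were at 1662 against 3075 CPM in Cdh1-only cells and 1852 against 3767 CPM in Cdh2-only cells. Twist1 behaved otherwise, at 11.6 against 10.7 CPM in Cdh1-only cells but 172 against 30.5 CPM in Cdh2-only cells. Msx1 was lower in each class, at 20.5 against 115 CPM in Cdh1-only cells, 83.04 against 149 CPM in Cdh2-only cells, 37.4 against 106 CPM with both cadherins and 48.02 against 169.9 CPM with neither. Bmp4 was at 42.4 against 68.3 CPM in Cdh1-only cells and 136 against 64.6 CPM in Cdh2-only cells, in opposite directions. Etv4 and Fgf8, at 0 ng/ml highest in Cdh2-only cells, were at 1.59 against 32.4 CPM and 3.49 against 60.95 CPM there.

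The cells of both libraries were also clustered together, on 1732 of 2945 variable genes, after leaving out genes with a ratio of 2 or more. Variable genes below that ratio could still build the clusters. At the floor, 17 of 24 cell cycle, 15 of 18 keratin and junction and 10 of 17 contractile genes lay within the rule. The 5 clusters are given by number and by the 2 genes that led each. Cluster 0 (Rab25, Cxcl14) held 35.3% of FGFRi cells and 33.1% of cells at 0 ng/ml, and cluster 1 (Prrx1, Twist1) held 27.7% and 21.99%. Cluster 2 (Lce1h, Spp1) held 30.7% and 7.13%, cluster 3 (Car14, Fgf8) 4.41% and 30.96%, and cluster 4 (Gm9112, Ascl2) 1.94% and 6.84%. The genes that led cluster 1 stood out among FGFRi cells alone. In the other library Prrx1 was detected in 4.29% of thinned cells of cluster 1, against 4.96% in cluster 2 and 4.0% in cluster 3, and cluster 3 held 40.2% of its UMIs. Epcam was detected in 28.7% against 67.02% and Krt8 in 19.96% against 68.1% of thinned cells of cluster 1, so that this cluster joined unlike cells of the libraries. Clusters 2 and 3 differed most in size here, but with 1 library a condition a cluster held mostly by 1 library may be that library. Even without genes with a ratio of 2 or more the libraries stayed apart. Of the nearest neighbors of FGFRi cells 82.2% came from the same library, and of those at 0 ng/ml 86.6% did. When genes with a ratio of 1.5 or more were left out, 5 clusters were found again, and the largest held 47.6% against 9.49%, 40.9% against 18.5% and 4.88% against 36.7%. A resolution of 0.5 gave 7 clusters, among them 1 with 33.9% against 9.08%, 1 with 1.65% against 22.995% and 1 with 11.7% against 0.177% of cells, so the near equal shares of cluster 0 depend on the resolution.

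**Figure D4:**
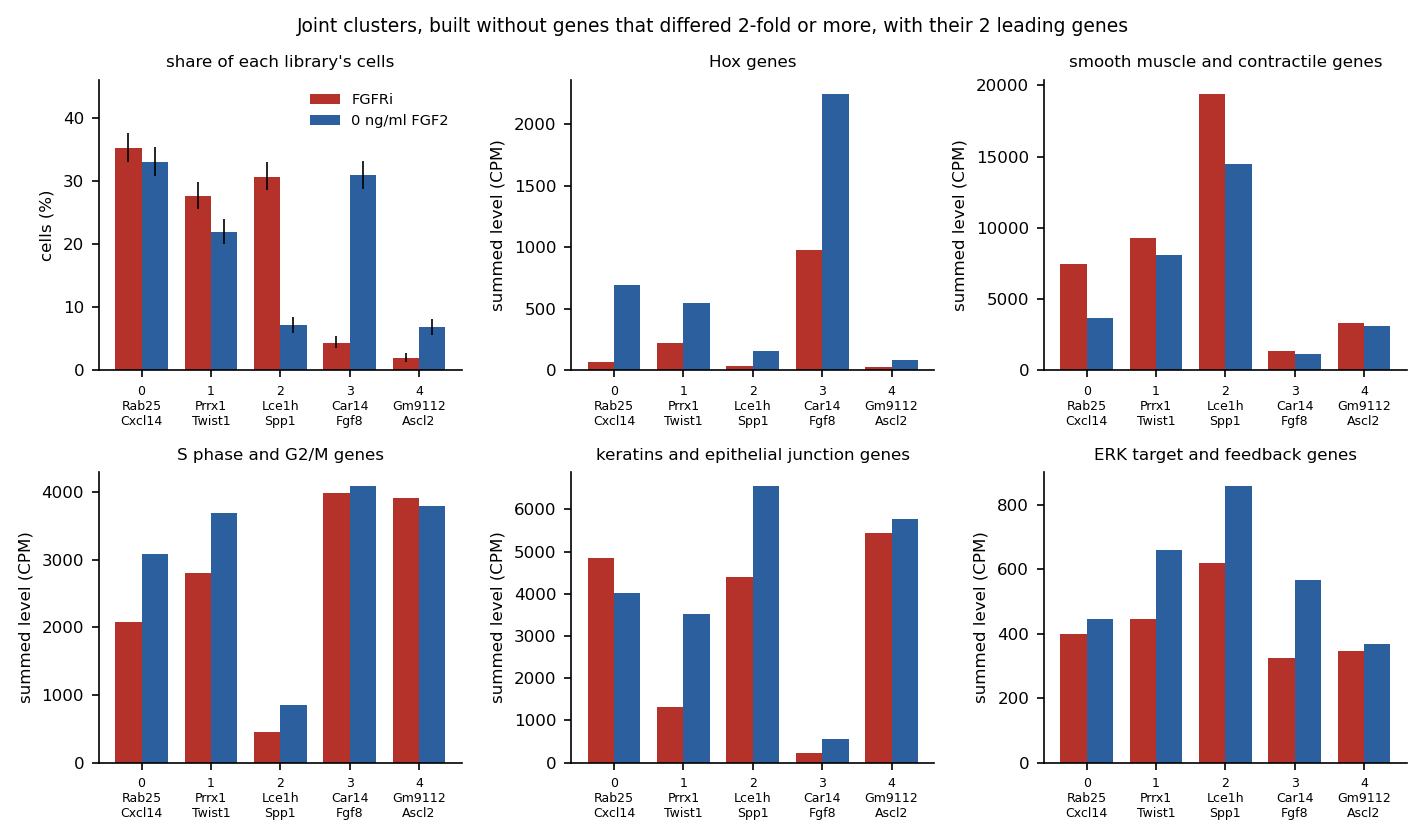
Share of each library's cells in the 5 joint clusters (%, with exact binomial 95% intervals) and summed levels of 5 gene lists within them (CPM), for FGFRi (red) and 0 ng/ml FGF2 (blue). Cluster numbers stand above their 2 leading genes. Hox sums are lower in red in every cluster, from 25.1 against 84.4 CPM in cluster 4 to 973 against 2244 CPM in cluster 3, and contractile sums are higher in red in every cluster.

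Hox genes had a lower sum in the FGFRi cells of each cluster, at 71.2 against 693 CPM in cluster 0, 223 against 546 CPM in cluster 1 and 973 against 2244 CPM in cluster 3. Cluster 3, with 75 FGFRi cells, held 28.1% of the Hox UMIs of that library, and cluster 1 held 43.2%. Hoxb8 was at 55.3 against 124 CPM in cluster 3 and without a UMI in the FGFRi cells of cluster 0, against 53.05 CPM at 0 ng/ml. In thinned cells of cluster 3, Hoxb9 was detected in 44.0% against 80.0% and Cdx2 in 14.7% against 62.3% of cells. Etv4 was detected there in 1.33% against 18.7%, with 1 of the 75 FGFRi cells. Cdx2 was lower in all 5 clusters, from 48.5 against 215 CPM in cluster 3 to 0.694 against 20.7 CPM in cluster 2.

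Some contractile genes could help to build the clusters, so nearness within a cluster may be partly built in. Contractile sums were nearest within clusters 1, 3 and 4. They were at 7475 against 3656 CPM in cluster 0, 9279 against 8086 CPM in cluster 1, 19411 against 14500.3 CPM in cluster 2 and 1343 against 1171 CPM in cluster 3. Of all Acta2 UMIs of the FGFRi library 74.1% were in cluster 2, which held 30.7% of its cells, and at 0 ng/ml 32.6% were there. Within cluster 2 Acta2 was at 2065 against 552 CPM and Tagln at 3958 against 2308 CPM. Igfbp2 was higher in all 5 clusters, most in cluster 0 at 2462 against 248 CPM.

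Cell cycle genes with a ratio under 2 could also help to build the clusters, so likeness within a cluster may be partly built in. Cell cycle sums differed in clusters 0, 1 and 2 and were near equal in the others. They were at 2079 against 3076 CPM in cluster 0, 2807 against 3681 CPM in cluster 1, 450.2 against 853 CPM in cluster 2, 3989 against 4084 CPM in cluster 3 and 3912 against 3795 CPM in cluster 4. Cluster 2 had the lowest sums in both libraries, and its Cdkn1a was at 664 against 355 CPM and Cdkn2a at 655 against 296 CPM. Cdkn1a was lower, not higher, in the FGFRi cells of cluster 3, at 16.4 against 75.3 CPM.

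Other genes differed in direction between clusters. Rspo3 was at 53.1 against 282 CPM in cluster 3 but at 67.1 against 22.9 CPM in cluster 1. Fgf8 was at 32.2 against 71.6 CPM in cluster 3, and at 29.5 against 1.49 CPM in cluster 4, where the FGFRi library had 33 cells. Msx1 was near equal in cluster 1 (122 against 126 CPM) and cluster 3 (180.1 against 173 CPM) and lower in cluster 0 (31.1 against 176 CPM). Keratin and junction genes were higher in cluster 0 (4845 against 4007 CPM) and lower in cluster 1 (1312 against 3515 CPM). Cluster 1 joined unlike cells, with Epcam at 108 against 314 CPM and Prrx1 at 233 against 8.28 CPM. Phlda2 was near equal in cluster 4, at 6215 against 5919 CPM, where 67.1% and 67.3% of its UMIs were.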

How the data were processed

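Libraries were made by the authors with the Chromium 3′ v3.1 chemistry. The authors deposited raw counts of UMIs per gene and cell barcode, aligned to mm10 and not normalized. Cell Ranger 5.0.1 stands in the matrix headers, a later version than in the methods. Of 32285 genes listed, 32158 were matched to positions in GENCODE vM21 (GRCm38). Groups came from the treatment labels, and no column of values was left aside.

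Cells were kept at 2500 or more genes and at most 10% mitochondrial UMIs. UMIs were summed over kept cells and divided by their total. Genes were called by a rule of size, namely 10 CPM or more on either side and a 2-fold or larger ratio. Each condition had 1 library, which allows no test. Intervals of levels, ratios and shares were exact Poisson, conditional and binomial 95% intervals. A pseudocount of 1 was used only for list medians. The 44 gene lists, with 669 genes, and the comparison itself were chosen with earlier results of these data known. Named genes were the 15 largest ratios in each direction at 50 CPM or more, up to 6 members of each list past the rule and up to 3 within it with the highest CPM, genes the study names, and defining markers at or near 0. Some members were named after their values were seen to complete a list.

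The FGFRi and 0 ng/ml libraries alone were clustered jointly in Scanpy 1.11.5, unlike in the study, and variable genes with a ratio of 2 or more were left out. The scaling to 50000 counts per cell, the regression on total counts and mitochondrial share, clipping at 10 and Leiden resolution 0.33 (leidenalg 0.10.2) followed the study's methods, and 50 components and 15 neighbors were chosen here. No doublet caller was run. As an alternative, cells above 2 times the median UMIs were left out. Promoter windows were matched by symbol in RefSeq (GRCm38.p6). The ratio, its interval, the rule of size and the thinning were tested on simulated data with counting error only. The other steps were not tested in this way. Alternatives covered scaling (TMM from edgeR 4.0.16 in R 4.3.3), totals, filters on cells, thinning, the floor and the ratio.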

Additional observations from a re-analysis of the deposited data

How the results depend on the processing

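With 1 library per condition, no replicate could be left out. No paired analysis was possible because the result comes from no test and each group has 1 sample. The count of 675 genes past the rule of size moved to between 664 and 790 when TMM factors, the mean of per-cell CPM, another total, stricter or no filters on cells, the removal of deep cells or thinning to 10000 UMIs replaced the main setting, and no gene past the rule changed direction. A total without mitochondrial and ribosomal protein genes left 453 higher but gave 337 lower genes, so that 57.3% of calls were higher in place of 67.3%, with the median of all genes shifted by −0.07 on the log2 scale. A floor of 50 CPM gave 212 genes (151 higher, 61 lower), a ratio of 1.5 gave 1845 (1043 higher, 802 lower) and a ratio of 3 gave 207 (143 higher, 64 lower). Of 132 named genes past the rule, 8 lost the call under some of the 7 alternatives that kept the floor of 10 CPM and the ratio of 2, while 59 were below a floor of 50 CPM and 52 below a ratio of 3. Of the list medians, 2 changed sign, that of keratin and junction genes, which was near 0, and that of hemato-endothelial genes, which fell from 0.33 to −1.05 with a floor of 5 CPM that admitted 1 more gene. A pseudocount of 5 brought the medians of Hox, streak, caudal and ligand genes to −2.13, −1.95, −1.31 and −1.94. Depth limits the genes below 10 CPM, for which shares of thinned cells lie near 0.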
